A study of Mus musculus with 4 samples.

Results

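The transcripts of 9 tight junction genes were followed through mouse skin tumours by single-cell RNA sequencing. The genes were Cldn1, Cldn3, Cldn4, Cldn5, Cldn7, Ocln, Tjp1, F11r and Cxadr, taken by symbol from the 31053 mouse genes listed in each matrix, and all 9 had a row in all 4 matrices. The tumours came from LKPR mice, whose alleles include Lgr5CreER, p53fl/fl and Rosa26-YFP. In these mice tamoxifen activates a Cre recombinase in Lgr5-expressing cells, which in skin include hair follicle stem cells, and that deletes p53 and marks the cells and their offspring with YFP. All mice received 4 daily injections of 2.5 mg tamoxifen from postnatal day 28, and tumours were seen 7 to 9 weeks later. The 2 control samples had no further treatment named in the labels, and the 2 NP137 samples came from mice that received NP137, a molecule directed against netrin-1, into the peritoneum until death, starting 4 weeks after tamoxifen with a dose of 10 mg/kg each 2 days. The age and the number of animals behind a sample are not given in the labels, so p-values measure the spread between these 4 samples, which may be technical in part. All live cells were sorted, with no gate on lineage, so each sample held tumour, normal skin, vessel and immune cells.

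Tight junctions seal the space between neighbouring cells of an epithelium or endothelium. Claudins and occludin span the membrane and form the strands, the immunoglobulin-like receptors F11r (also called JAM-A) and Cxadr sit beside them, and the scaffold ZO-1, the product of Tjp1, ties the strands to actin. In epidermis Cldn1 and Cldn4 belong to the barrier of the upper layers, Cldn5 is the main claudin of endothelium, and carcinoma cells that take on a mesenchymal state are known to lose claudins and occludin.

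Each sample gave 1 library, control 1, control 2, NP137 1 and NP137 2. Their matrices held 88076950, 73685280, 69517664 and 149021188 UMIs (unique molecular identifiers, 1 per captured transcript), and 10482, 5301, 14205 and 14513 cells were used. Median UMIs per cell ran from 2352 in NP137 1 to 6044 in control 2. Barcodes shared by a pair of libraries numbered 24 to 86. NP137 1 held cells with a UMI of Xist and of no Y-linked gene in 27.7% of its cells and the reverse in 16.7%, whereas in each of the other 3 libraries one kind stood at 51.4% or more and the other at 0.302% or less. The larger kind was that with Xist in control 1 and NP137 2 and that with Y-linked UMIs in control 2. NP137 1 thus held cells of both sexes, and so of more than 1 animal. The cells formed 24 clusters, built without the 9 genes, without a wider list of 46 tight junction genes and without YFP. A cluster was called YFP-positive where at least 50% of its cells had a YFP UMI. There were 5 such clusters, at 68.4% to 96.3%, and the next cluster stood at 28.05%. A level below is in CPM, the UMIs of a gene scaled to 1000000 UMIs of a cell class in 1 library. Levels of different genes were not ranked against each other, since 3′ counts depend on where each transcript ends.

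The 10045 YFP-positive cells fell into an epithelial-like cluster led by Gpx2, Tchh and Il24 and 4 other clusters led by Mme and Acan, by Crisp1 and Mgp, by H19 and Aqp1, and by Fxyd2 and Aldh3a1. The epithelial-like cluster held 7.08% of the YFP-positive cells of control 1, 1.66% of control 2, 78.7% of NP137 1 and 99.6% of NP137 2. The epithelial surface protein gene Epcam stood at 653 and 1146 in the epithelial-like cells of control 1 and NP137 1 and at 4.94 and 61.8 in the other YFP-positive cells. Vim, the gene of the mesenchymal filament protein vimentin, stood at 645 and 573 in the epithelial-like cells and at 6008 and 4550 in the others. Keratinocytes outside the tumour lineage were taken from 3 epithelial-like clusters below the YFP threshold, led by Krt15, by AY036118 and Krt79, and by Cst6 and Defb6. The second had a median of 850 UMIs per cell and came almost wholly from control 2 (1520 of 1530 cells), and the third carried Krt1 and Sprr1a among its leading genes. These unlabelled epithelial-like cells may include recombined cells in which no YFP was captured. The endothelial-like cluster was led by Emcn, Cdh5 and Plvap.

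Windows around the start sites are printed for 4 genes that were lower in the YFP-positive cells outside the epithelial-like cluster than in it. That of Cldn1, which was lower there in NP137 1 and higher in control 1, is printed beside them. Ocln and Cxadr were also lower there, but the windows of Ocln are not printed and Cxadr had none. The windows show where the E-box CACCTG lies on either strand, the letters that repressors of the Snail and Zeb families are known to bind. They are RefSeq windows of build GRCm38.p6, 250 bases before to 50 bases after a start site. They are read 5′ to 3′ on the strand of the gene, with each E-box in capitals. For Cldn7 the second of its 2 start sites is shown, and the window of the first held 0 E-boxes.
Cldn3 (chr5:134985964-134986263, + strand): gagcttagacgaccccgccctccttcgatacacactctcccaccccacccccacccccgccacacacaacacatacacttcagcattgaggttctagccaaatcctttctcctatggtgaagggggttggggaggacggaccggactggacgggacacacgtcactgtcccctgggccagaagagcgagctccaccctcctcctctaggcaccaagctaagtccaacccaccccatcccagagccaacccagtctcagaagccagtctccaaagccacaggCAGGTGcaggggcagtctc
Cldn4 (chr5:134946885-134947184, - strand): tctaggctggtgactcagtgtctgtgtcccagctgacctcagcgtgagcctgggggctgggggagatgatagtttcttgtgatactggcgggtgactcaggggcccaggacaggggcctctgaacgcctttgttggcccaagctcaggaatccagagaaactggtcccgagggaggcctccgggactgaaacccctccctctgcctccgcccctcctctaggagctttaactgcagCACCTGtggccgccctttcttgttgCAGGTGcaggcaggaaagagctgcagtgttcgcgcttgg
Cldn7 (chr11:69965171-69965470, + strand): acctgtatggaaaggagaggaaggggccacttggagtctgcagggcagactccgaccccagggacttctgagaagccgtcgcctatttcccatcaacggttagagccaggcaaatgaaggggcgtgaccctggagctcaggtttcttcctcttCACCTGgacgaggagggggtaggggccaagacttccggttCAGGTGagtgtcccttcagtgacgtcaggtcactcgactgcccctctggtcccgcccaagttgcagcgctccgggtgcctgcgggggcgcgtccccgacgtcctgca
F11r (chr1:171437311-171437610, + strand): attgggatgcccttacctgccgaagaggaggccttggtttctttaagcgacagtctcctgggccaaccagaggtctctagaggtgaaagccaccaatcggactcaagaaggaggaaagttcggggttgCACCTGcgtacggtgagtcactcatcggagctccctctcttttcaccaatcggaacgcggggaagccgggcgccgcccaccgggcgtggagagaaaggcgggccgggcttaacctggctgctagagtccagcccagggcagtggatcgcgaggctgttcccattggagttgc
Cldn1 (chr16:26371790-26372089, - strand): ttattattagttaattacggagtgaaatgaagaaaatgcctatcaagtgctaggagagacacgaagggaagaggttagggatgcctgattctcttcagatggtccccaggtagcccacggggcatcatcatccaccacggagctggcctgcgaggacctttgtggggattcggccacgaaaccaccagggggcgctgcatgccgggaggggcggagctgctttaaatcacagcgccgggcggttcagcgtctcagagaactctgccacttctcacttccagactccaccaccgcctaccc
The 2 E-boxes of Cldn4 lay 14 bases before and 12 bases after its start site, and the E-box of Cldn3 lay 32 bases after its own. A match in either strand was found in 5 of the 8 genes with a window, Cldn3, Cldn4, Cldn7, Ocln and F11r, and in none of the windows of Cldn1, Cldn5 and Tjp1. Cldn7 and Ocln have 2 windows each, and counted by window 6 of 10 held a match. Over 32851 RefSeq windows of the same length, 20.2% held one. The Grainyhead-like letters AACCGGTT were in no window of the 8 genes and in 0.146% of all windows. A match of letters is a description of the sequence and no evidence of binding.

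In GRCm38/mm10, Cldn3 lies at chr5:134986214-134987472 on the + strand and Cldn4 at chr5:134945119-134946934 on the - strand. The start sites of these neighbours are 39280 bases apart, with 0 other protein-coding genes between them in GENCODE M21. Cldn1 lies at chr16:26356642-26371841, Cldn5 at chr16:18776847-18778262 and Cxadr at chr16:78301489-78359774. Cldn7 lies at chr11:69964779-69967885, Ocln at chr13:100496507-100552718, Tjp1 at chr7:65296165-65527781 and F11r at chr1:171437535-171464603. All are annotated as protein-coding.

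**Figure D1:**
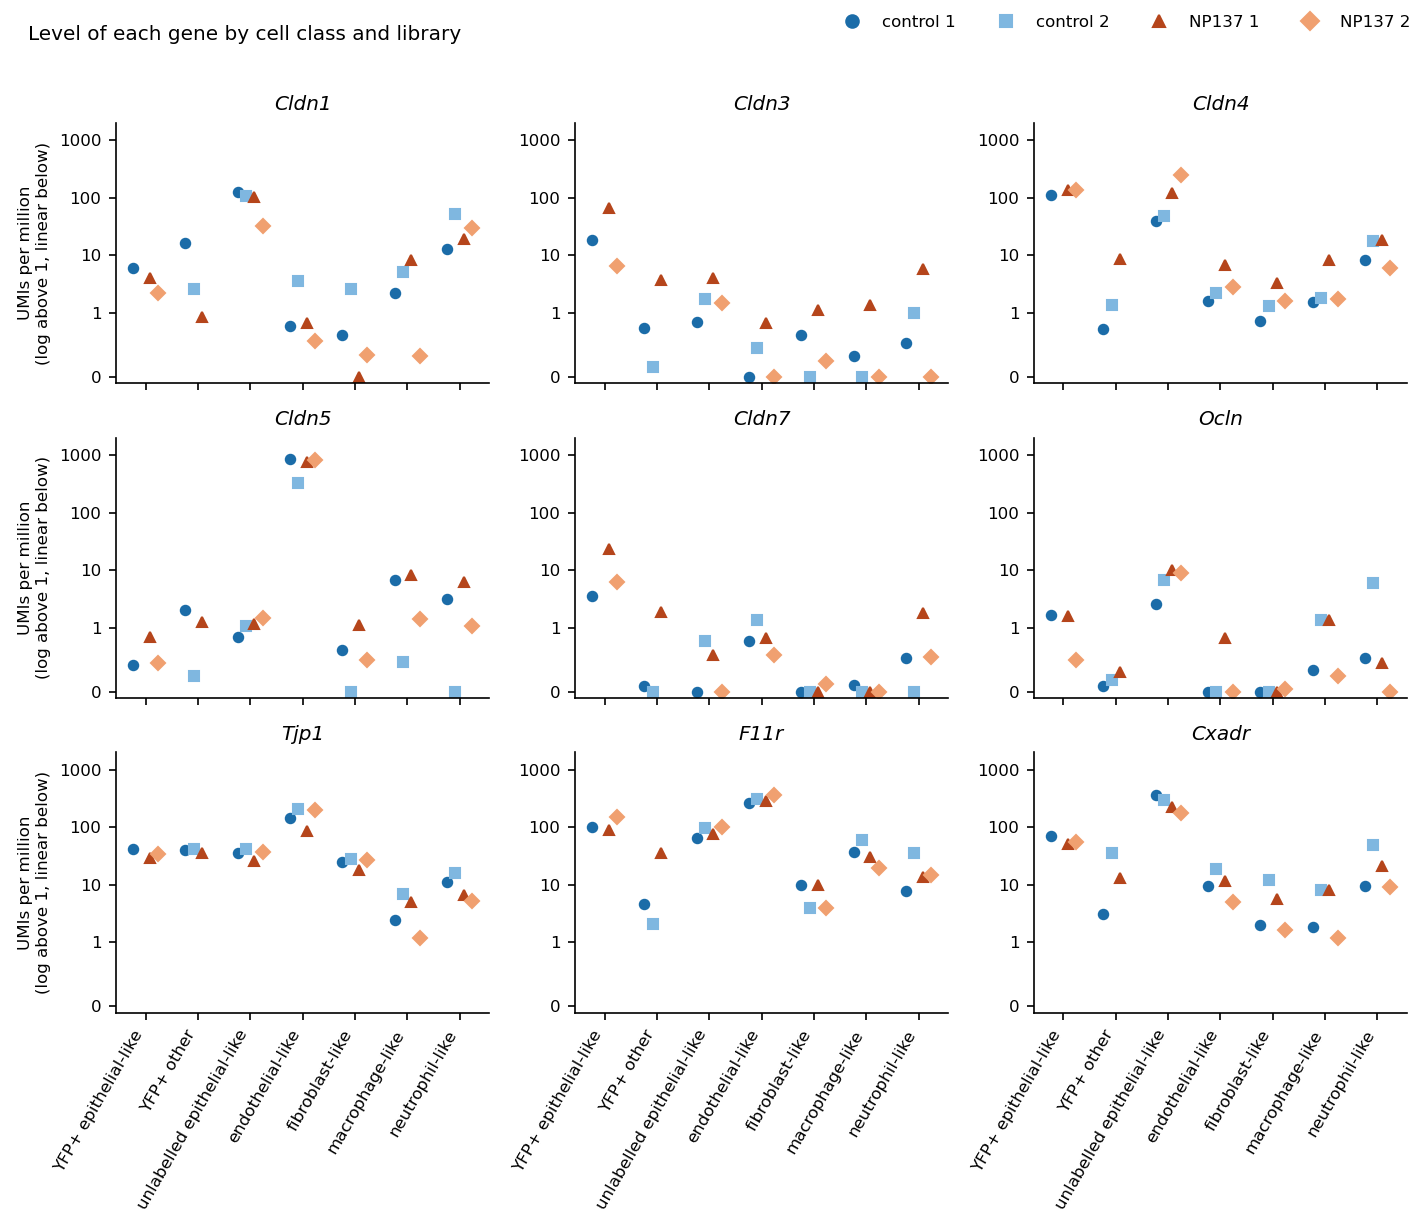
CPM (log scale above 1, linear below) of each gene in 7 cell classes, 1 point per library with at least 50 cells of the class. Cldn5 stands at 328 to 861 in endothelial-like cells, while Cldn3 and Cldn4 are highest by median in the YFP-positive epithelial-like cells.

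The 9 genes fell into different orders over the cell classes of the tumours, shown by the plot of levels by class. Cldn4 had its highest median in YFP-positive epithelial-like cells, 137 over 3 libraries, ahead of unlabelled epithelial-like cells at 83.8, with ranges of 111 to 139 and 40.1 to 244 that overlapped. Cldn3 was highest in YFP-positive epithelial-like cells at 6.46 to 66.4 and reached 4.06 at most in unlabelled ones. Cldn7 stood at 3.59 to 23.2 in YFP-positive and at 0 to 0.798 in unlabelled epithelial-like cells. For Cldn3 and Cldn7 these ranges did not overlap, and no share over all genes was computed for this.

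Cldn1, Ocln and Cxadr were highest in unlabelled epithelial-like cells. The Cldn1 range there was 32.6 to 125, above neutrophil-like cells at 12.7 to 53.1, which overlapped it, and YFP-positive epithelial-like cells at 2.26 to 6.13, which did not. The range of Cxadr, the receptor shared by coxsackievirus and adenovirus, was 179 to 370 in unlabelled and 50.7 to 71.8 in YFP-positive epithelial-like cells. Ocln was sparse everywhere, at 2.56 to 10.2 and 0.497 to 1.69 in the same 2 classes.

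Cldn5, F11r and Tjp1 were highest in endothelial-like cells. Outside them the highest Cldn5 level in a named class of at least 50 cells was 8.19, in macrophage-like cells. F11r spanned 262 to 369 in endothelial-like cells and 88.6 to 149 and 65.7 to 101 in YFP-positive and unlabelled epithelial-like cells, whose ranges overlapped. Tjp1 had medians of 26.0 to 43.2 in pericyte-like, fibroblast-like, epithelial-like and YFP-positive cells and 171 in endothelial-like cells.

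In both libraries that could be compared, 6 of the 9 genes were higher in the epithelial-like state than in the other YFP-positive cells. Only control 1 and NP137 1 held at least 50 cells of both states, so these are values with no test. The share of all genes higher in that state in both libraries was not computed, so the count has no yardstick. The other YFP-positive cells were also a different mix in each library. The cluster led by Fxyd2 and Aldh3a1 gave 567 of the 676 in NP137 1 and 75 of the 4279 in control 1. Those led by Mme and by H19 gave 3057 and 1131 in control 1. In control 1 Cldn4 stood at 111 in the epithelial-like cells and 0.743 in the other YFP-positive cells, and in NP137 1 at 139 and 8.49. Cldn3 stood at 18.4 and 0.765 in control 1 and at 66.4 and 3.77 in NP137 1. Cldn7 stood at 3.59 and 0.0874 in control 1, the latter from 4 UMIs, and at 23.2 and 1.89 in NP137 1. These 3 claudins were thus higher in the epithelial-like state in both libraries, as were F11r, Cxadr and Ocln, the last with 4 and 2 UMIs in the other YFP-positive cells.

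F11r was 99.7 against 4.57 in control 1 and 88.6 against 36.3 in NP137 1. Cxadr was 71.8 against 3.102 and 50.7 against 13.2. Tjp1 was 42.5 against 39.6 and 28.7 against 36.1, so its order differed between the libraries. Cldn1 also differed in order, at 6.13 against 16.4 in control 1 and 3.99 against 0.943 in NP137 1. Cldn5 was lower in the epithelial-like state in both, at 0.422 against 2.03 and 0.852 against 1.26.

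The 4 clusters outside the epithelial-like one were not alike. Cldn1 reached 23.2 in the cells of control 1 in the cluster led by Mme and Acan, which gave 665 of the 749 Cldn1 UMIs of that state. Cxadr reached 35.7 in the cluster led by Crisp1 and Mgp, 1265 cells of which came from control 2. F11r reached 50.6 and 38.6 in control 1 and NP137 1 in the cluster led by Fxyd2 and Aldh3a1, against 0.892 in the cluster led by H19 and Aqp1. In the 567 cells of NP137 1 in the cluster led by Fxyd2 and Aldh3a1, Cldn4 stood at 9.10 and Cldn3 at 3.95. Within control 1, which held 3 of the 4 clusters, F11r stood at 50.6, 4.58 and 0.892 in those led by Fxyd2, by Mme and by H19, so this order was present in a single library. The cluster led by Crisp1 came almost wholly from control 2, where cluster and library cannot be told apart.

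YFP-positive cells outside the epithelial-like cluster were set beside fibroblast-like cells of the same library in control 1, control 2 and NP137 1. Of the 5 genes tested, Cldn1, Cldn4, Tjp1, F11r and Cxadr, 0 passed edgeR's quasi-likelihood test at an adjusted p of 0.05, where 15.6% of 12250 genes did, 6.22% higher and 9.34% lower. At an unadjusted p under 0.05 there was 1 of the 5, Cxadr, beside 4127 of all 12250 genes. Its log2 fold change was 0.99 ± 0.34 (SE), with an adjusted p of 0.0993 in edgeR's test. Cldn3, Cldn5, Cldn7 and Ocln had too few UMIs to be tested. Of 19 genes tested from the wider list, the scaffold gene Magi1 (2.08 ± 0.36) and Ybx3 (1.21 ± 0.23) rose and Cldn10 (-5.14 ± 0.49) and Amotl2 (-2.10 ± 0.25) fell, on the log2 scale. The clusters themselves were formed from all other genes, so the 15.6% is no independent yardstick. Without control 1, 401 genes passed.

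NP137 was compared with control over all YFP-positive cells, the comparison at which the study's treatment is aimed. Cldn4 stood at 11.1 in control 1, 3.37 in control 2, 110 in NP137 1 and 137 in NP137 2. Cldn3 stood at 2.42, 0.894, 52.5 and 6.45 in the same order. Cldn7 stood at 0.416, 0.0298, 18.5 and 6.18, the control 2 value from 1 UMI. Both NP137 libraries were above both controls for each of the 3.

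F11r stood at 13.5 and 3.099 in the controls and at 77.0 and 149 in the NP137 libraries. Cxadr stood at 9.54, 35.6, 42.4 and 55.3, and control 2 was closer to NP137 than to control 1. Ocln, at 0.238, 0.268, 1.29 and 0.496, rested on 9 to 37 UMIs per library, and its shares of cells, given with those of the other genes at equal depth, were at background. Relative to TMM-scaled totals, 6 of the 9 genes had higher values in both NP137 libraries than in both controls, which was so for 27.7% of all 14145 genes tested, and 0 had lower values, against 30.1%.

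Cldn1 stood at 15.4, 2.92, 3.31 and 2.26, with control 1 apart from the other 3 libraries. Tjp1 stood at 39.9, 42.7, 30.3 and 34.1, and its groups overlapped once totals were scaled by TMM. Cldn5 stayed at or below 1.88 in all 4 libraries.

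In the quasi-likelihood test of edgeR, with p-values adjusted after Benjamini and Hochberg, 0 of the 9 genes passed an adjusted p of 0.05, beside 0.00707% of the 14145 genes tested, which is 1 gene. The log2 fold changes were 4.32 ± 0.69 (SE) for Cldn4 (edgeR adjusted p 0.0772), 5.89 ± 1.23 for Cldn7 (0.0930), 4.01 ± 0.87 for F11r (0.0977), 4.33 ± 1.16 for Cldn3 (0.126) and 2.05 ± 0.78 for Ocln (0.207). These 5 had an unadjusted p under 0.05 and were higher in NP137. Of all genes 23.4% had such a p, 10.7% higher and 12.7% lower. For Cxadr the log2 fold change was 1.39 ± 0.64 (edgeR adjusted p 0.271), for Cldn1 -1.501 ± 0.87 (0.361), for Cldn5 -0.41 ± 1.12 (0.860) and for Tjp1 -0.10 ± 0.25 (0.840). The median over the 9 genes was 2.05, beside -0.03 over all genes tested.

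**Figure D2:**
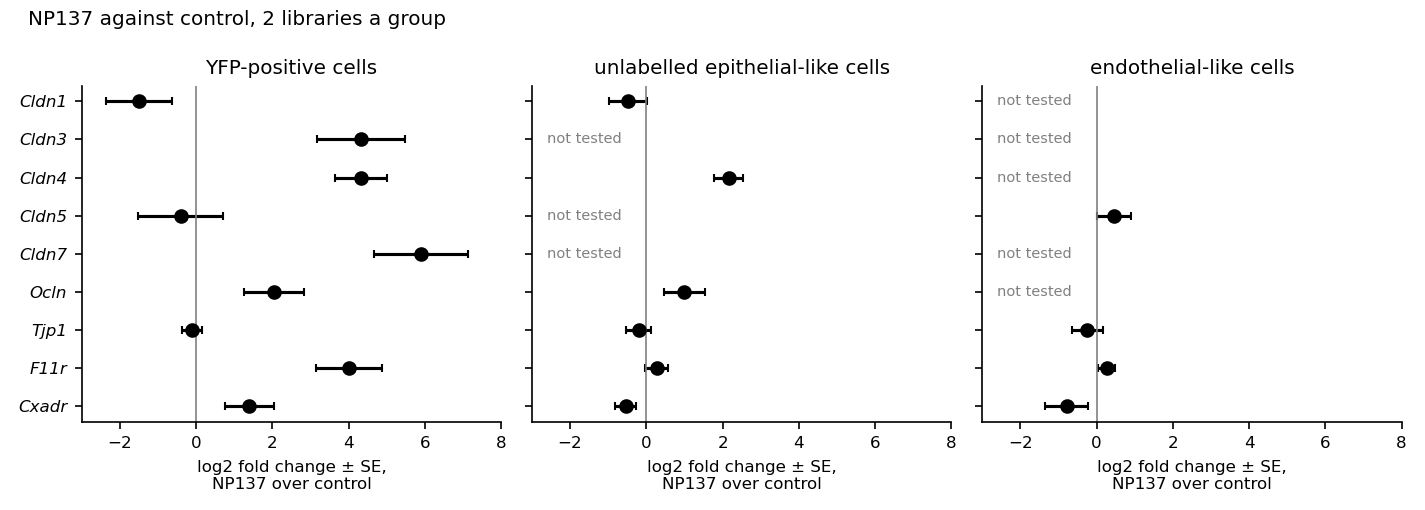
Log2 fold change of NP137 over control for each gene in 3 cell classes, with bars of ± 1 SE from edgeR over 2 libraries a group. In YFP-positive cells 5 of the 9 genes stand at 2.05 to 5.89, and in endothelial-like cells the tested genes stand between -0.78 and 0.46.

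DESeq2 on the same sums called 2277 of 21853 genes, and 7626 of the 21853 had no adjusted p. Among those called were Cldn4 (DESeq2 adjusted p 2.86e-09), Cldn7 (1.78e-07), F11r (5.85e-06) and Cldn3 (9.74e-05). Genes called by edgeR numbered 546 without control 1, 96 without control 2, 124 without NP137 1 and 0 without NP137 2. Cldn4, Cldn7 and F11r passed without control 1 and Cldn4 without control 2.

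The share of epithelial-like cells among YFP-positive cells, given above, moved with these levels, as did Vim (5506, 4658, 1456 and 170) and Zeb1 (78.3, 63.7, 7.71 and 0.938), which encodes a repressor of epithelial genes. Their part in the result was not tested. Within the epithelial-like state the same genes stood as follows. Cldn4 was 111 in control 1, 146 in control 2, where the state had 22 cells, 139 in NP137 1 and 137 in NP137 2. F11r was 99.7, 77.3, 88.6 and 149, and Cxadr was 71.8, 70.8, 50.7 and 55.3. Ocln was 1.69, 6.44, 1.57 and 0.497, from 8 UMIs in control 1 and 9 in NP137 2.

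Cldn3 in that state was 18.4, 53.6, 66.4 and 6.46, and Cldn7 was 3.59, 2.15, 23.2 and 6.18. The Cldn7 value of control 2 rested on 1 UMI. Values of controls and NP137 libraries overlapped for Cldn3, Cldn4 and F11r. For Cxadr and Ocln both NP137 values were below both controls, and for Cldn7 both were above. No test was made, and no share over all genes was computed, because control 2 held fewer than 50 such cells.

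The YFP-positive cells of NP137 1 differed in Cldn3 and Cldn7 between its Xist and Y-linked cells. Among 1163 cells with Y-linked UMIs and no Xist, Cldn3 stood at 58.2 (95% Poisson interval 54.1 to 62.6, counting error only). Among 495 cells with Xist and no Y-linked UMI it stood at 15.2 (11.6 to 19.4). Cldn7 stood at 18.6 (16.3 to 21.2) and 3.37 (1.84 to 5.65). These intervals were apart, while those of Cldn4, at 105 (99.6 to 111) and 96.96 (87.7 to 107), overlapped. This split lies within 1 library, is also a split between animals, and has no replicates.

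**Figure D3:**
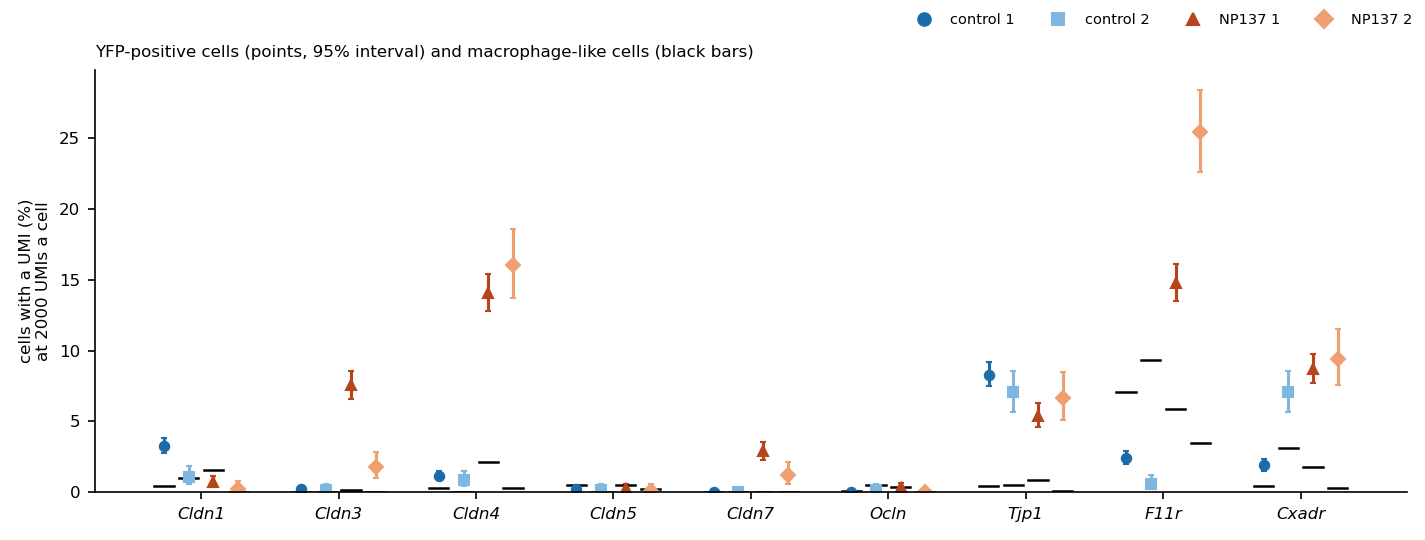
Percent of YFP-positive cells with at least 1 UMI of each gene after thinning to 2000 UMIs a cell, shallower cells left out, with 95% exact binomial intervals, and the same share in macrophage-like cells of the library as black bars. For Cldn4 the NP137 libraries stand at 14.1% and 16.02% and the controls at 1.15% and 0.861%.

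Cells were thinned to 2000 UMIs, which left out 346, 45, 232 and 34 shallower YFP-positive cells of control 1, control 2, NP137 1 and NP137 2. At this equal depth the share of YFP-positive cells with a Cldn4 UMI was 1.15% and 0.861% in the controls and 14.1% and 16.02% in the NP137 libraries. In macrophage-like cells, which should lack claudin strands, it was 0.317%, 0%, 2.15% and 0.287%. For Cldn3 the shares were 0.235%, 0.156%, 7.54% and 1.77%, with 0.179% in macrophage-like cells at most. Cldn7 was found in 0.0470%, 0%, 2.89% and 1.22%, and in 0% of macrophage-like cells of all 4 libraries. Cldn5 and Ocln reached 0.305% and 0.373% at most, against up to 0.537% and 0.518% of macrophage-like cells, which is background.

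For F11r the shares were 2.42% and 0.626% in the controls, below the 7.07% and 9.33% in macrophage-like cells of the same libraries, which express this gene themselves. In the NP137 libraries it was found in 14.7% and 25.4%, above the 5.90% and 3.51% in macrophage-like cells. Tjp1 was found in 5.40% to 8.29% of YFP-positive cells over the 4 libraries and in 0.894% of macrophage-like cells at most. An exact permutation test over 4 libraries cannot go below a two-sided p of 0.333, so these shares are a description.

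In unlabelled epithelial-like cells NP137 and control differed most in Cldn4. It stood at 40.1 and 48.6 in the controls and at 119 and 244 in the NP137 libraries, the last from 63 cells and 165 UMIs. The groups did not overlap, and the log2 fold change was 2.16 ± 0.37 (SE), with an unadjusted p of 0.000312 and an adjusted p of 0.440 in edgeR's quasi-likelihood test. Of the 6 genes tested 0 passed, as did 0 of all 11437 genes (0%). At an unadjusted p under 0.05 there was 1, Cldn4, higher in NP137, beside 842 of all genes (7.36%), of which 3.68% were higher and 3.68% lower. DESeq2 called 30 of 19316 genes, Cldn4 among them at a DESeq2 adjusted p of 0.00171, and 7116 of the 19316 had no adjusted p.

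Cldn1 stood at 125, 107, 105 and 32.6, with groups that overlapped once totals were scaled by TMM, Cxadr at 370, 298, 224 and 179, and Ocln at 2.56, 6.85, 10.2 and 8.88. F11r, at 65.7 to 101, and Tjp1, at 26.4 to 42.5, overlapped between groups. Values did not overlap for Cldn4 and Ocln, higher in NP137, and for Cxadr, lower in NP137, where 19.7% and 23.7% of all genes did so. The median log2 fold change of the 6 genes was 0.04 beside -0.03 over all genes.

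The share of the cluster that carried Krt1 and Sprr1a, genes of differentiating keratinocytes, moved with Cldn4. That cluster made up 6.52% and 7.87% of the unlabelled epithelial-like cells of the controls and 18.6% and 44.4% of those of the NP137 libraries. Within it Cldn4 stood at 125 in control 2 and 308 in NP137 1, and within the cluster led by Krt15 at 23.8, 20.8 and 55.4 in control 1, control 2 and NP137 1. NP137 1 was thus above control 2 in both clusters and above control 1 in the cluster led by Krt15. Control 1 held 18 cells of the cluster that carried Krt1 and Sprr1a, and no level is given for it there. The part of the cluster shares in the pooled value was not tested. Cldn4 passed without control 1 (edgeR adjusted p 0.00531), without NP137 1 (3.39e-07) and without NP137 2 (0.00577), when 98, 401 and 72 genes passed in all, and did not pass without control 2 (0.836), when 0 genes did. With the replicate number as a block 79 genes passed, Cldn4 among them (edgeR adjusted p 0.00149).

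YFP-positive and unlabelled epithelial-like cells of the same library were compared in control 1, NP137 1 and NP137 2. Cldn3 and Cldn7 were higher in the YFP-positive cells and Cldn1, Cxadr and Ocln lower, while Cldn4, F11r and Tjp1 did not pass. Cldn3 stood at 0.854, 4.06 and 1.48 in the unlabelled and at 18.4, 66.4 and 6.46 in the YFP-positive cells, a log2 fold change of 3.84 ± 0.35 (SE, edgeR adjusted p 4.58e-05). Cldn7 stood at 0, 0.580 and 0, from 5 UMIs in all 3 libraries, and at 3.59, 23.2 and 6.18, a log2 fold change of 5.23 ± 0.53 (edgeR adjusted p 9.94e-05). In each of the 3 libraries both genes were higher in the YFP-positive cells.

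**Figure D4:**
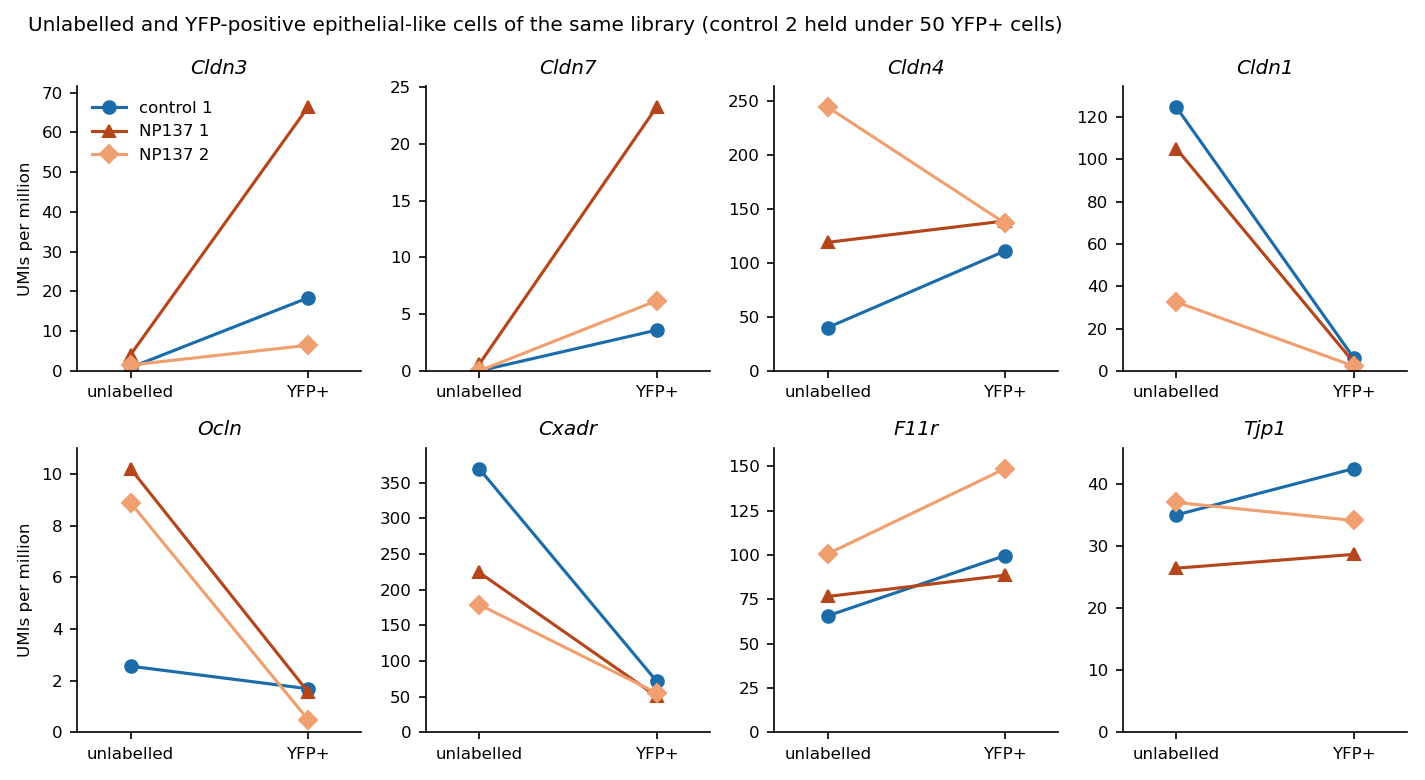
CPM of 8 genes in unlabelled and YFP-positive epithelial-like cells, with a line joining the 2 classes of each of 3 libraries. Cldn3 and Cldn7 go up and Cldn1, Ocln and Cxadr go down along every line, and Cldn4 goes up along 2 of the 3.

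Cldn1 fell from 125, 105 and 32.6 to 6.13, 3.99 and 2.26, a log2 fold change of -4.48 ± 0.24 (edgeR adjusted p 2.12e-06). Cxadr fell from 370, 224 and 179 to 71.8, 50.7 and 55.3, with a log2 fold change of -2.16 ± 0.17 (edgeR adjusted p 2.36e-05). Ocln fell from 2.56, 10.2 and 8.88 to 1.69, 1.57 and 0.497, with a log2 fold change of -2.72 ± 0.58 (edgeR adjusted p 0.00678). The ranges of the 2 classes did not overlap for Cldn1, Cxadr and Ocln. The share of all genes of which this was so was not computed.

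Cldn4 was higher in YFP-positive cells in control 1 and NP137 1 and lower in NP137 2, with a log2 fold change of 0.12 ± 0.48 (edgeR adjusted p 0.883). F11r was higher in all 3 libraries, by 0.35 ± 0.16 on the log2 scale (edgeR adjusted p 0.129). For Tjp1 the log2 fold change was 0.01 ± 0.19 (edgeR adjusted p 0.977). So 5 of the 8 genes tested passed, 2 higher and 3 lower, where 28.6% of 12160 genes passed, 13.6% higher and 15% lower. The other genes formed the clusters and the 9 did not, so that share is a loose yardstick.

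In this comparison the Cldn7 call was lost without NP137 1 (edgeR adjusted p 0.0677, log2 fold change 7.71), and the number of genes called fell from 3475 to 930, and to 2025 without control 1. Without the library term Cldn3 did not pass (edgeR adjusted p 0.132). NP137 2 held 63 unlabelled cells.

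Of 27 wider-list genes tested in this comparison, 5 rose and 6 fell. Jam2, a junctional adhesion molecule, stood at 2.56, 4.52 and 2.96 in the unlabelled and at 45.4, 104 and 156 in the YFP-positive epithelial-like cells, a log2 fold change of 4.53 ± 0.26 (edgeR adjusted p 2.74e-06). Cldn8 rose by 2.60 ± 0.48, and Lsr, which encodes a protein of junctions between 3 cells, by 0.63 ± 0.17 on the log2 scale. Cgn and Ybx3 were the other two that rose. Among those that fell, Cldn10 fell by 5.18, Tjp3 by 4.05, Ildr1 by 3.63, Marveld2 by 1.48 and Crb3 by 1.10 on the log2 scale. The median log2 fold change was -0.26 over the 27 tested, beside 0.03 over all genes.

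Endothelial-like cells were compared with unlabelled epithelial-like cells in all 4 libraries, and all 7 genes tested passed, 3 higher and 4 lower, where 50.8% of 10518 genes did, 25.1% higher and 25.7% lower. Cldn5 stood at 861, 328, 752 and 809 in endothelial-like cells and at 0.854 to 1.48 in unlabelled epithelial-like cells, a log2 fold change of 8.64 ± 0.23 (SE, edgeR adjusted p 9.93e-08). F11r stood at 262, 304, 283 and 369 and was higher by 1.63 ± 0.12 (edgeR adjusted p 6.37e-06). Tjp1 stood at 145, 205, 87.5 and 197 and was higher by 1.89 ± 0.16 (edgeR adjusted p 1.64e-05). For these 3 the ranges of the classes did not overlap, and the share of all genes of which this was so was not computed.

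Cldn1, Ocln, Cldn4 and Cxadr were lower in endothelial-like cells, with log2 fold changes of -5.91 ± 0.31, -5.45 ± 0.76, -5.28 ± 0.34 and -4.76 ± 0.24 and edgeR adjusted p of 0.000322 or less, each in 4 of 4 libraries. Cldn3 and Cldn7 had too few UMIs in both classes to be tested. From the wider list 12 of 22 rose and 7 fell. Esam, an endothelial adhesion molecule, rose by 7.88 ± 0.28 and Jam3 by 5.35 ± 0.32, and Crb3, a polarity protein of the apical membrane, fell by 5.91.

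NP137 against control in endothelial-like cells gave 0 calls among the 4 genes tested and 0 of 9419 genes (0%), while DESeq2 called 2 genes. None of the 4 had an unadjusted p under 0.05, where 867 of all genes (9.2%) did, 4.26% higher and 4.95% lower. The log2 fold change was 0.46 ± 0.45 (SE) for Cldn5, 0.27 ± 0.23 for F11r, -0.24 ± 0.41 for Tjp1 and -0.78 ± 0.57 for Cxadr, with edgeR adjusted p of 0.642 to 0.859. Of the 4, 0 had groups that did not overlap in either direction, where 22.7% of all genes were higher and 21.8% lower. Without control 1, 41 genes passed.

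**Figure D5:**
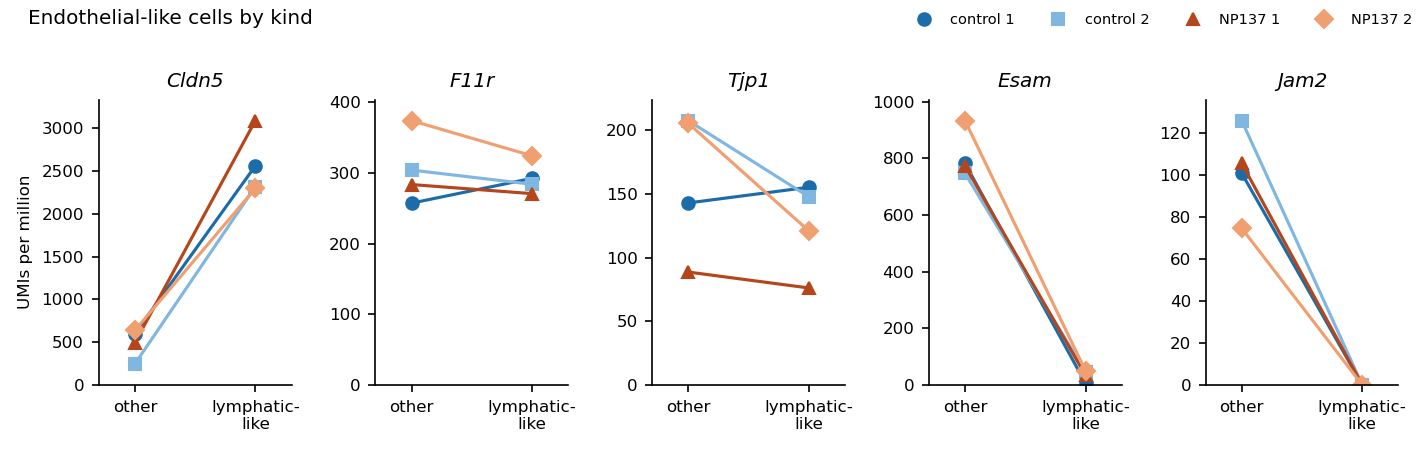
CPM of 5 genes in lymphatic-like and other endothelial-like cells, with a line joining the 2 kinds of each library. Cldn5 goes up to 2299 or more in every library, Esam goes down to 49.5 or less, and Jam2 goes to 0.

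A sub-cluster of the endothelial-like cells carried 5 markers of lymphatic vessels and was led by Ccl21a and Mmrn1, and Prox1, which specifies lymphatic endothelium, stood there at 322 to 436 and at 2.80 or less in the other cells. It was found by clustering added after the first values were seen, without the 9 genes and the wider list. It held 39, 12, 51 and 23 cells. Cldn5 stood there at 2562, 2319, 3090 and 2299, against 600, 246, 494 and 638 in the other endothelial-like cells. Every lymphatic-like value was above every value of the other cells, and the share of all genes of which this was so was not computed.

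F11r, at 271 to 325 and 258 to 374, overlapped between the kinds, and so did Tjp1. Esam stood at 5.97 to 49.5 in lymphatic-like and at 747 to 933 in other endothelial-like cells. Jam2 was at 0 UMIs in the lymphatic-like cells of all 4 libraries, against 101, 126, 106 and 74.6. With under 50 cells in 3 of the 4 libraries no test was made. Lymphatic-like cells made up 13.9%, 4.11%, 11.1% and 9.09% of the endothelial-like cells, lowest in control 2, which was also lowest in Cldn5.

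Some endothelial-like sub-clusters carried keratinocyte RNA. A sub-cluster of 285 cells, 265 of them from NP137 1, was led by Krtdap and Krt14, and another of 89 cells, 82 of them from control 2, had Krt79 and Col17a1 among its leading genes. Krt14, a keratin of basal keratinocytes, stood at 225, 403, 1034 and 134 in endothelial-like cells. Cldn4 was also highest in NP137 1, at 6.73 against 1.59 to 2.84 in the other libraries. The part of keratinocyte RNA in the endothelial levels was not tested.

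The wider list of tight junction genes had 45 of its 46 symbols in the files, and in YFP-positive cells 0 of 32 tested passed for NP137 against control. At an unadjusted p under 0.05, 7 were higher and 7 lower, against 10.7% and 12.7% of all genes. The 3 of smallest p among the higher were Crb3, at 0.931, 0.447, 12.8 and 44.2 (log2 fold change 5.61 ± 0.90, edgeR adjusted p 0.0772), Pard6b (4.24 ± 0.74, 0.0811) and Jam2 (3.07 ± 0.67, 0.0971). Crb3 and Pard6b encode members of apical polarity complexes. The 3 lower ones were the angiomotin genes Amot (-3.43 ± 0.56, edgeR adjusted p 0.0772) and Amotl2 (-1.45 ± 0.33, 0.101) and the scaffold gene Mpdz (-1.45 ± 0.35, 0.109). The median of the 32 was 0.37 on the log2 scale.

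In unlabelled epithelial-like cells 0 of 26 passed. The smallest p were those of Ybx3 (log2 fold change 1.07 ± 0.33), Crb3 (1.68 ± 0.59) and Lsr (0.64 ± 0.37) among the higher and of Cgnl1 (-1.51 ± 0.68), Magi1 (-0.91 ± 0.41) and Prkci (-0.73 ± 0.38) among the lower. In endothelial-like cells 0 of 18 passed, with Ybx3 (0.48 ± 0.27), Esam (0.20 ± 0.21) and Mpp5 (0.15 ± 0.27) on one side and Magi1 (-0.75 ± 0.27), Amotl2 (-0.69 ± 0.27) and Sympk (-0.48 ± 0.29) on the other. All edgeR adjusted p were 0.536 or more in these 2 classes.

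Several scaffold and regulator genes of the list were expressed in both tumour and vessel. The Ybx3 level, a Y-box factor bound by ZO-1, averaged 784 in YFP-positive and 291 in endothelial-like cells. Amotl1 averaged 76.3 and 110, Jam2 76.1 and 92.5, Sympk 30.0 and 35.8, Mpp5 27.2 and 37.3 and Mpdz 19.8 and 24.2. Pard3, at 55.3 and 7.53, and Lsr, at 33.1 and 4.83, were higher in YFP-positive cells. Esam, at 1.25 and 735, Cgnl1, at 5.34 and 34.2, Jam3, at 3.49 and 27.7, Magi1, at 18.1 and 59.0, Magi3, at 8.41 and 31.2, and Amotl2, at 14.2 and 33.6, were higher in endothelial-like cells. These are means over 4 libraries, with no test between the classes.

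Over 41 sums of a class and a library, the genes most like each member were found by Pearson's r of log2(level + 1) among 10690 genes, with no p, since the sums share libraries. Cldn4 was most like Lypd3 (0.963), Krt6a (0.958) and S100a14 (0.951). Cxadr was most like the desmosome genes Dsp (0.941) and Dsc3 (0.939) and Celsr2 (0.928), and Cldn5 most like Mmrn1 (0.946), Flt4 (0.939) and Rbp7 (0.936). Cldn3 was most like Krt90 (0.878), Vsnl1 (0.832) and Pitx1 (0.824). Ocln was most like Spink5 (0.856), Ehf (0.812) and 2310046K23Rik (0.804), and Tjp1 most like Myo6 (0.861), Nckap1 (0.848) and Trip10 (0.840). The genes most like F11r included Stap2 (0.855) and Rapgef5 (0.830). The likeness was lower for Cldn1, with Mapk13 (0.755), Crct1 (0.708) and Irx4 (0.697), and for Cldn7, with Utp3 (0.593), Tubb4b (0.587) and Krt90 (0.585).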

How the data were processed

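Single-cell libraries of 2 control and 2 NP137-treated skin tumour samples were analysed from the gene-by-cell matrices. The deposited values were raw UMI counts; the file headers name version 3.0.2 of the 10x software, and the submitters' processing notes name build mm10 and Seurat 3.1.5. Per the labels' protocols, chips of V2 and library kits of V3 chemistry were used for 3′ libraries.

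Barcodes passed with 200 or more genes and a mitochondrial share below 20%. The highest Scrublet scores, 0.8% per 1000 barcodes, were removed as doublets. Cells were clustered with scanpy 1.11.5 and leidenalg 0.10.2 (2000 variable genes, 30 components, 15 neighbours, resolution 1). Clusters were named from marker lists, at least 3 detected. Counts were summed per library and class, with at least 50 cells, and tested with edgeR 4.0.16 in R 4.3.3 (TMM, filterByExpr, quasi-likelihood test, Benjamini-Hochberg over all genes, threshold 0.05), with the library as a term between classes. SE is the log2 fold change divided by the square root of the F statistic. DESeq2 1.42.0 was an alternative. Others were scaling, no filter on low counts, leaving out each library, the replicate block, a stricter cell filter (500 genes, 10%), no doublet removal and resolution 2. The steps were tested on simulated counts with known log2 changes of 1, 2 and 4. For NP137 against control in YFP-positive cells, edgeR recovered 0 of 81, 2 of 58 and 51 of 61 such changes. It made 7 false calls there. DESeq2 recovered 1, 25 and 58 of the same changes and made 74 false calls. Cell classes hold different numbers of UMIs, so sparse genes are less precise in small classes.

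All 9 genes were named whatever their p. Of the wider list, the 3 of smallest p in each direction per NP137 comparison and genes with a mean level of at least 20 were named, apart from those that passed between classes. For each of the 9, the 3 most alike of the genes with a mean of at least 5 were named. Some items that these rules or the labels name are not reported here. The members and lists were chosen with earlier results of these data known. Intervals and limits for a count of 0 (3 counts) cover counting error only.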

Additional observations from a re-analysis of the deposited data

Results flagged for a closer look

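Cldn7 stood at 15.1 CPM in the B-like cells of NP137 2, from 133 UMIs in 1171 cells, a class outside the comparisons above. It was at 0 UMIs in the B-like cells of both controls and of NP137 1, but these libraries held 13, 2 and 15 such cells, where a count of 0 allows up to 71.1, 204 and 117. A difference between libraries was therefore not detectable at this depth. These B-like cells gave 51.0% of the Cldn7 UMIs of NP137 2, and its YFP-positive epithelial-like cells gave 42.9%. Cldn7 stood at 19.9 in the cluster led by Igkc and Jchain, the genes of an immunoglobulin light chain and the joining chain. It stood at 0 in the other B-like cluster, led by Cd79a and Ms4a1, with 625 cells, 596 of them from NP137 2.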

How the results depend on the processing

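Over the 9 genes, 408 values were recomputed under alternatives, of which 372 kept their direction and side of the threshold, 2 lost a call, 16 gained one and 18 changed sign. Genes called between NP137 and control in YFP-positive cells, 1 by edgeR, numbered 2277 with DESeq2, 1275 with no filter on low counts, 0 with the replicate block, with no doublets removed and in cells with a YFP and a Cdkn2a UMI, and 0 to 546 with a library left out. In unlabelled epithelial-like cells, 0 became 30 with DESeq2, 150 with no filter, 79 with the replicate block, 1 at resolution 2 and 0 to 401 with a library left out. In endothelial-like cells 0 became 2, 157 with no filter and 0 to 41 with a library left out. YFP-positive against unlabelled epithelial-like cells gave 930 to 4278 with a library left out and 940 without the library term. The comparison with fibroblast-like cells gave 401 to 1470 with a library left out. The cause was not tested.

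The numbers of the labels were shared by 2 pairs only and nothing ties them, with correlations of same-numbered deviations of 0.029, 0.141 and -0.0047 in the 3 NP137 comparisons, so the replicate block is a check and no pairing.

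Some log2 fold changes that had not passed changed sign, that of Cldn1 in YFP-positive cells (-1.501) among them. With a library left out, NP137 against control ranged from -1.23 to 1.81 for Cldn5 and -2.26 to 0.23 for Cldn1 in YFP-positive cells, from -0.383 to 0.0581 for Tjp1 and -1.67 to 0.0654 for Cldn1 in unlabelled epithelial-like cells, and from -0.94 to 0.22 for Tjp1 and -0.0608 to 1.31 for Cldn5 in endothelial-like cells. Between the epithelial-like classes Cldn4 ranged from -0.39 to 0.59 and Tjp1 from -0.0915 to 0.0547, and against fibroblast-like cells F11r ranged from -1.22 to 0.48 and Cldn4 from -0.27 to 0.61. Cldn5 in YFP-positive cells was 0.0712 with the replicate block and 1.52 with no doublets removed. Without the library term Cldn4 and Tjp1 between the epithelial-like classes were -0.22 and -0.0205, and F11r against fibroblast-like cells was 0.63. With no doublets removed F11r against fibroblast-like cells was 0.74. Leaving out the cluster of few UMIs, added after seeing the data, changed no call of the 9 genes.

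The stricter cell filter left NP137 2 under 50 unlabelled epithelial-like cells, so it gave no value for that comparison or for the one between the epithelial-like classes. Tests between the YFP-positive states were not run, since 2 libraries held both, and the alternatives to their tool, filter, library and block were not run either. Depth limits Cldn7 and Ocln, which had 1 and 9 UMIs in the YFP-positive cells of control 2.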

Other observations

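Cldn1 UMIs were also counted in neutrophil-like cells. The level was 12.7, 53.1, 19.1 and 29.6 CPM in the neutrophil-like cells of control 1, control 2, NP137 1 and NP137 2, from 24, 53, 43 and 218 UMIs. Over all cells of each library it was 13.98, 31.6, 21.3 and 2.89, so control 1 and NP137 1 were below that level and control 2 and NP137 2 above it. Macrophage-like cells stood at 0.320 to 8.19. The neutrophil-like cells of NP137 2 gave 67.3% of all Cldn1 UMIs of that library. An unnamed cluster led by Chil3 and Tbc1d4, with class II genes such as H2-Eb1 among its leading genes, stood at 36.0.

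Tjp1 in T or NK-like cells stood at 43.9, 98.6, 31.3 and 0.454, from 16, 43, 15 and 1 UMIs, so NP137 2 was apart from the other 3 libraries. Cldn5 stood at 22.5 in an unnamed cluster led by Apod and Cilp.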
